A study of Homo sapiens with 6 samples.

Results

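Readthrough genes are annotated genes whose transcripts run from one gene into its neighbour on the same strand and join exons of both. The deposited expression table of HCT116 cells names such a gene by both neighbours with a hyphen, as in BIVM-ERCC5. A row was taken as a readthrough gene when its symbol held a single hyphen and the names on both sides of it were symbols of rows of their own. This found 61 readthrough genes among the 17047 rows, with 122 part genes, and left out 70 other symbols with a hyphen. All values below are estimated counts from poly(A)-selected RNA read as single 50-nt ends, unless they are called FPKM (counts scaled for transcript length and library size) or CPM (counts scaled for library size alone, with TMM factors).

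The samples were 6 libraries of HCT116, a human colorectal carcinoma cell line, and served to ask how the transcriptome changed when PLEK2, a pleckstrin homology domain protein, was depleted. The 3 libraries of the shNC group carried a non-targeting short hairpin RNA, and the 3 libraries of the PLEK2 knockdown group carried an shRNA against PLEK2. A single hairpin sequence against PLEK2 is listed in the methods, which describe viral delivery, so the control libraries share the transduction with the knockdown libraries. Neither the labels nor the methods used here say that the libraries of a group came from separate cultures, so the p-values measure the spread between these libraries, which may be technical.

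Readthrough transcripts arise when RNA polymerase passes the polyadenylation site of the upstream gene and splicing removes the end of that gene together with the space between the neighbours. Most exons of the product are also exons of a part gene, so a short read from a shared exon matches several annotated genes at the same time. A counting program that estimates abundances then divides such reads between the genes, and only reads over the joining splice junction, or in exons of the readthrough gene alone, belong to it without ambiguity. Some of these transcripts code for fusion proteins of both neighbours, and others carry early stop codons and are targets of nonsense-mediated decay.

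In GENCODE 44 on GRCh38, both part genes were found for 59 of the 61 loci, all 59 pairs lay on the same strand, and in 58 the first part lay upstream. GPR75-ASB3, whose parts are an orphan receptor gene and an ankyrin repeat gene, was the exception. The part genes overlapped at 11 loci, and at the other 48 the gap ran from 141 to 108285 nt, with a median of 7529 nt. The readthrough gene itself was found for 52 loci, and 22 of these had a transcript marked for nonsense-mediated decay. Among 51 loci whose transcripts could be cut into 50-nt windows, the windows found in the readthrough gene and in no part gene made up a median of 11.3% of its windows, with a range from 1.0% to 42.2%. This is the stretch of sequence from which a 50-nt read could come from the readthrough gene and not from a part. The annotation that the counts were made with is not given in the sources used here, so these windows describe GENCODE and not the submitters' index.

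The sequences below are the joining junctions of 9 readthrough genes that the results turn on, as spliced RNA written in DNA letters, 15 bases of the last exon shared with the first part in lower case and 15 bases of the next exon, from the second part, in capitals. They show what separates a readthrough read from a part read, since the lower-case bases and the capitals come from exons of different genes, while the joined 30 bases occurred in 1 GENCODE gene each.
BIVM-ERCC5: ggaaaaagatgtctaATATTAGCATTTGGT
TMEM189-UBE2V1: tctgcatcaccacagGAGTAAAAGTCCCTC
CHURC1-FNTB: atggatgaatttcagGCAAAAGTAGAAGAA
CORO7-PAM16: gacgaggacgagtggGCCAAGTACCTGGCC
BCL2L2-PABPN1: agcagtgggggctggGAGCTGGAAGCTATC
PPAN-P2RY11: gggaaatggatcgagGTGCCAAGTCCTGCC
NME1-NME2: catacaagttggcagGACCATGGCCAACCT
BUB1B-PAK6: aaagccttatggaagGGAGTGCCGCTTCCT
RPL36A-HNRNPH2: gataagaagagaaagCTACACCAAAATTGC
In BIVM-ERCC5 the lower-case bases were chr13:102839789-102839803 and the capitals chr13:102852118-102852132 on the plus strand, joining exon 11 to exon 12 of 25 across an intron of 12314 nt. In TMEM189-UBE2V1, which GENCODE lists as PEDS1-UBE2V1, they were chr20:50127975-50127989 and chr20:50096806-50096820 on the minus strand, joining exon 5 to exon 6 of 8 over 31154 nt. In CHURC1-FNTB they were chr14:64926066-64926080 and chr14:65004249-65004263 on the plus strand, exon 3 to exon 4 of 14. The junction of CORO7-PAM16 joined chr16:4355286-4355300 to chr16:4343277-4343291 on the minus strand, exon 27 to exon 28 of 31. For BCL2L2-PABPN1 it joined chr14:23308185-23308199 to chr14:23322181-23322195 on the plus strand, exon 3 to exon 4 of 9. For PPAN-P2RY11 it joined chr19:10111008-10111022 to chr19:10113633-10113647 on the plus strand, exon 12 to exon 13 of 13. The 3 remaining junctions were in NME1-NME2 on chromosome 17, BUB1B-PAK6 on chromosome 15 and RPL36A-HNRNPH2 on chromosome X, all on the plus strand. Every one of the 9 junctions lay inside the annotated coding sequence of its transcript. For BUB1B-PAK6 GENCODE lists 1 transcript, which is marked for nonsense-mediated decay. For SETDB2-PHF11 and ANKHD1-EIF4EBP3, which also appear in the results, no joining junction is shown.

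Library totals lay between 14377532 and 15602732 estimated counts. PLEK2 stood at 86.0, 72.6 and 82.9 CPM in shNC replicates 1, 2 and 3, and at 16.02, 32.2 and 34.95 CPM in the knockdown replicates, so the groups did not overlap. Its log2 fold change was -1.54 (SE 0.24), and edgeR gave an adjusted p of 0.684, or 0.00106 when the replicate number was a block. Epithelial markers summed to between 3495 and 4912 FPKM per library, against 4.36 to 6.02 FPKM for fibroblast, 0.61 to 0.94 FPKM for immune and 0.05 to 0.19 FPKM for endothelial markers. DCN and PTPRC, defining markers of fibroblasts and of immune cells, had no row.

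Readthrough rows were low in these cells. Their mean count over the 6 libraries had a median of 18.2, against 244.5 for the first parts and 176.8 for the second parts. In 26 of the 61 rows the mean was under 10 counts, in 24 it lay from 10 to under 100, and in 11 it was at least 100. All 61 together held 6939 to 8208 counts per library, which was 6.93% to 7.96% of the counts of the loci and 0.0479% to 0.0539% of the library.

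The share of a locus is used here as the count of the readthrough row as a percentage of the sum of its 3 rows, which are the readthrough gene and both parts. The mean share over libraries had a median of 2.9% across the 61 loci. It was under 1% at 20 loci, from 1% to under 5% at 15, from 5% to under 20% at 13, from 20% to under 50% at 11, and above that at 2. Within a single library the median share lay between 1.66% in knockdown replicate 1 and 3.07% in knockdown replicate 3, and the 3 shNC libraries, at 2.68%, 2.89% and 2.33%, fell inside that range.

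**Figure D1:**
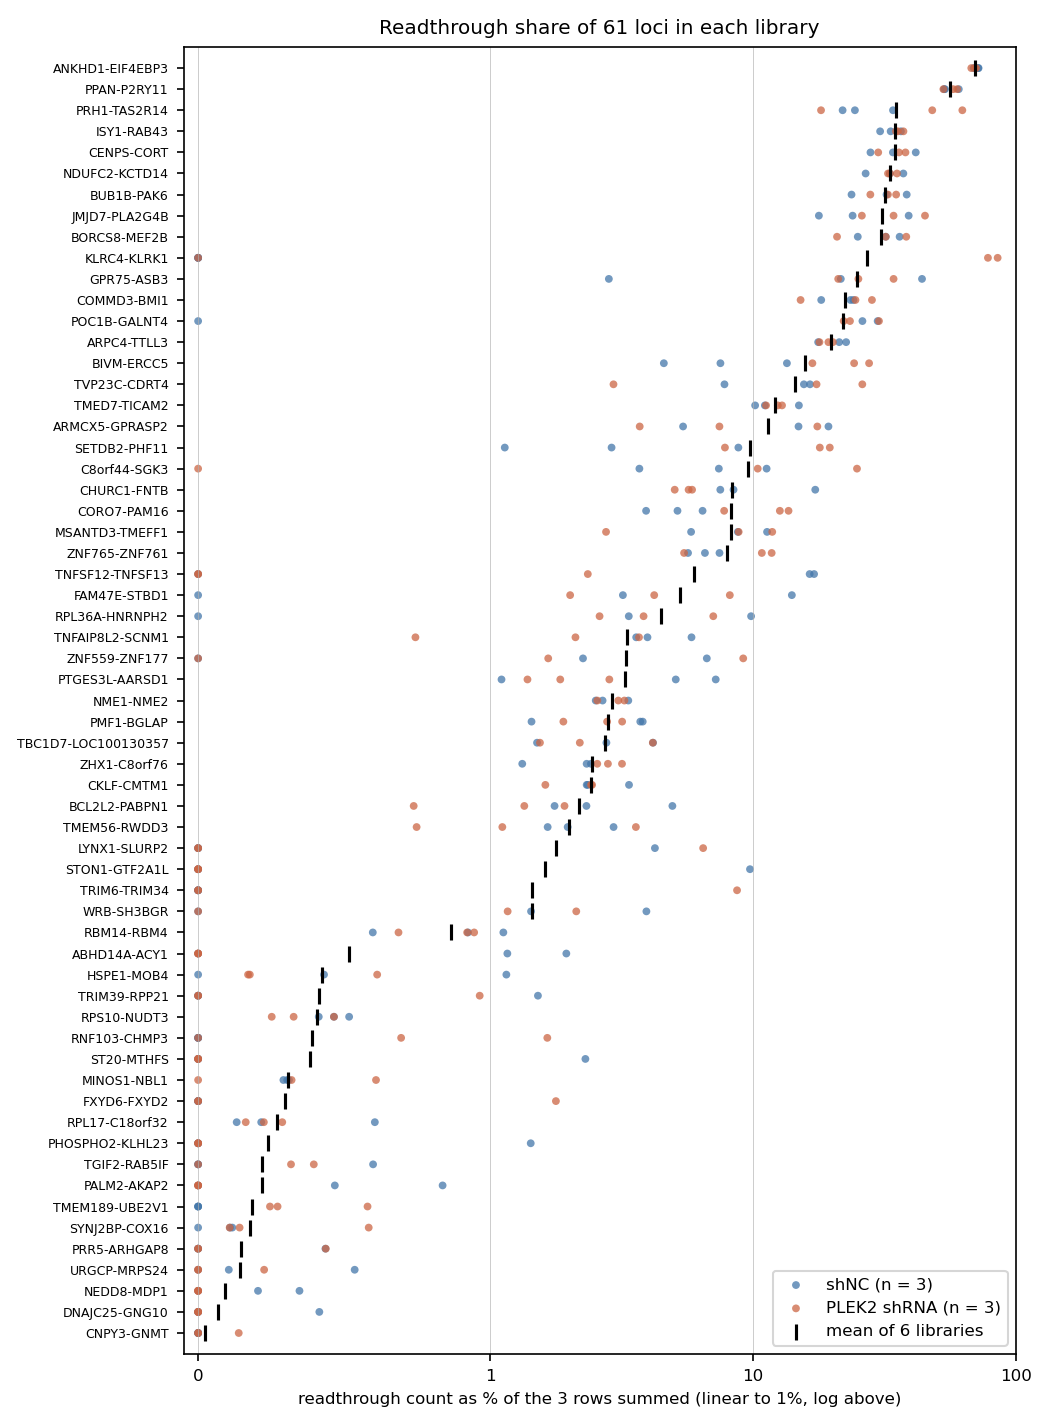
The readthrough share of each of the 61 loci, as a percentage of the 3 rows summed, on an axis that is linear to 1% and logarithmic above, with 1 point for each library coloured by group and a black tick at the mean of the 6 libraries. ANKHD1-EIF4EBP3 and PPAN-P2RY11 stand at the top with points close together, while many loci lower down have points at 0 in some libraries.

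Per length, 1 readthrough row exceeded both its parts in all 6 libraries. ANKHD1-EIF4EBP3, which joins a large ankyrin repeat and KH domain gene to a translation repressor of the 4E-BP family, had a mean of 15.7 FPKM, against 9.36 FPKM for ANKHD1 and 0.207 FPKM for EIF4EBP3. Its counts were 2054, 1775 and 1806 in shNC and 1963, 2058 and 1964 in the knockdown, and EIF4EBP3 was listed at 0 in 3 of the libraries. The share of ANKHD1-EIF4EBP3 ran from 67.6% to 72.1% over the libraries, and it was 71.0% ± 1.7 (SD, n = 3) in shNC and 69.2% ± 1.5 in the knockdown. In GENCODE 22.5% of the 50-nt windows of ANKHD1-EIF4EBP3 were found in neither part.

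PPAN-P2RY11, which joins a ribosome biogenesis gene to a purinergic receptor gene, was above both parts in counts in every library but level with PPAN per length, at 24.3 FPKM against 24.2 FPKM. Counts of PPAN-P2RY11 were 958, 1432 and 1134 in shNC and 848, 1302 and 1142 in the knockdown. The row of P2RY11 held 0, 16.8 and 174 counts in shNC and was listed at 0 in all 3 knockdown libraries. At this locus almost all counts were thus assigned to PPAN and to PPAN-P2RY11, and the shares of the readthrough row lay between 53.0% and 60.6%.

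A further group of rows stood above the second part and below the first. Per length, 8 readthrough rows exceeded the second part in all 6 libraries, 2 exceeded the first part, and 31 were below both. BUB1B-PAK6 joins a mitotic checkpoint kinase gene to a p21-activated kinase gene. Its counts were 815, 904 and 990 in shNC and 952, 1024 and 1025 in the knockdown, and its mean of 17.4 FPKM compared with 37.1 FPKM for BUB1B and 2.08 FPKM for PAK6. TMED7-TICAM2, in which the second part is an adaptor of Toll-like receptor signalling, had 442, 252 and 232 counts in shNC and 456, 326 and 287 in the knockdown, while TICAM2 itself held at most 16.1 counts in any library. CENPS-CORT joins a kinetochore and DNA repair gene to the gene of the neuropeptide cortistatin. Its own counts ran from 46.7 to 77.3, those of CORT from 1.2 to 8.51. At these 3 loci the estimation gave the readthrough row more counts than the second gene in every library.

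Other rows with high counts had steady shares as well. ISY1-RAB43, which joins a spliceosome gene to a small GTPase gene, held 374, 397 and 308 counts in shNC and 431, 389 and 419 in the knockdown, with shares from 30.4% to 37.3%. NDUFC2-KCTD14 joins a subunit gene of respiratory complex I to a potassium channel tetramerisation domain gene, and its shares ran from 26.8% to 37.3%. COMMD3-BMI1, whose second part is a Polycomb protein gene, varied more, with 357, 225 and 262 counts in shNC and 453, 200 and 286 in the knockdown. ARPC4-TTLL3, which joins an actin-nucleating Arp2/3 complex gene to a tubulin glycylase gene, had shares from 17.7% to 22.6%. NME1-NME2 joins 2 neighbouring nucleoside diphosphate kinase genes of similar sequence, so the assignment between its 3 rows is uncertain. It held 313 to 410 counts per library, but with NME1 at 375 FPKM and NME2 at 804 FPKM on average these were only 2.52% to 3.35% of the locus. None of the 10 readthrough rows described so far passed an adjusted p of 0.05 between the groups in edgeR, with or without the replicate block. Their log2 fold changes lay between -0.19 for ARPC4-TTLL3 and 0.15 for TMED7-TICAM2, with BUB1B-PAK6 at 0.08. With the block, PPAN-P2RY11 had an unadjusted p of 0.015 in edgeR (adjusted p = 0.168) at a log2 fold change of -0.17.

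Some high mean shares rested on few reads. KLRC4-KLRK1, at a locus of natural killer cell receptor genes, had a mean share of 27.2%, yet its 3 rows together held only 5 to 13 counts per library and the readthrough row was listed at 0 in 4 of the 6 libraries. PRH1-TAS2R14, which joins a salivary protein gene to a bitter taste receptor gene, had shares from 18.1% to 62.5% on 19.9 to 30.2 summed counts. For such rows the share was not measurable with any precision at this depth.

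The readthrough rows carried decimals where most rows of the table did not, and the decimals cancelled when the locus was summed. Between 84.2% and 85.4% of all values in a library were exactly whole numbers, as single reads assigned to 1 gene would give. To within 0.02, the tolerance used below, 86.1% of all values in the table were whole. Of the 366 readthrough values, 90 were 0 and 257 had decimals, which left 19 whole numbers above 0. In shNC replicate 1, for example, BIVM-ERCC5 held 51.98 counts, BIVM 256.11 and ERCC5 383.91, and their sum was 692.

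Over the 257 values with decimals, adding the first part gave a whole number in 24 cases, or 9.3%, and adding the second part did so in 50, or 19.5%. Adding both gave a whole number in 206, or 80.2%, where 5% of evenly spread decimals would fall within the tolerance. Sums were whole in all 6 libraries at 47 of the 61 loci, in some libraries at 10, and in none at 4, which were ARMCX5-GPRASP2, ARPC4-TTLL3, RBM14-RBM4 and TVP23C-CDRT4. At the 47 loci the 3 rows thus added up to whole reads in every library.

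**Figure D2:**
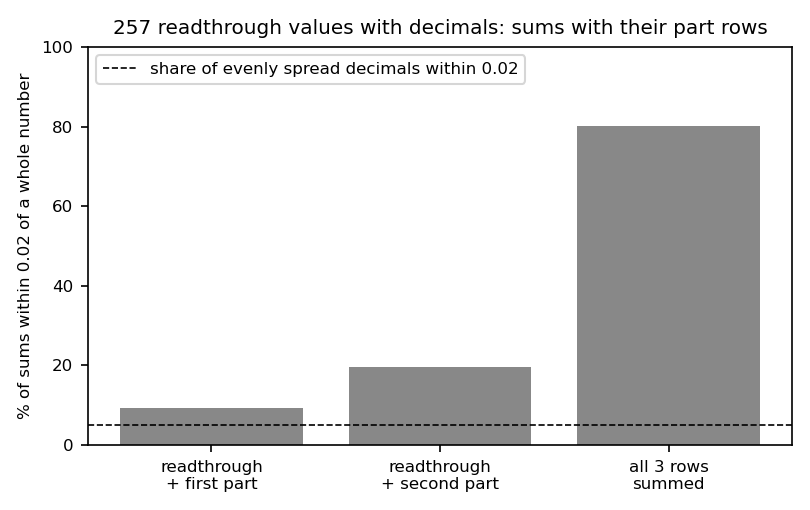
Bars give the percentage of sums within 0.02 of a whole number, for the 257 readthrough values that had decimals, after adding the first part, the second part or both, and the dashed line marks the 5% of evenly spread decimals that would fall so close. The bars stand at 9.3%, 19.5% and 80.2%.

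The counts of some readthrough rows differed widely between libraries, and the sums of their loci differed less. At 15 of the 61 readthrough rows, 24.6%, a library listed the row at 0 while another held at least 10 counts, and the same was true of 31 of the 16986 other rows, 0.183%. The libraries at 0 and at 10 or more counts were of the same group at 14 readthrough rows and 27 other rows, while TMEM189-UBE2V1 differed between the groups. Of those 31 rows, 3 had a hyphenated name and 2 were the part genes P2RY11 and TICAM2. The highest count in such a row was that of RPL36A-HNRNPH2, which joins a ribosomal protein gene to a heterogeneous nuclear ribonucleoprotein gene and whose first part has many near copies in the genome.

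RPL36A-HNRNPH2 held 760, 242 and 0 counts in shNC and 615, 304 and 208 in the knockdown. The counts of RPL36A-HNRNPH2 fell in the order of the replicate numbers in both groups. In CPM, the numbers were in the same order in both groups at 8 of the 36 readthrough rows with enough counts for a test. COMMD3-BMI1, TMED7-TICAM2 and PPAN-P2RY11 were among the 8. The same count was not made over all rows, so it cannot be read as particular to readthrough rows. The spread within groups given here was not separated from what same-numbered libraries share. The library at 0 was shNC replicate 3, and the 3 rows of its locus summed to 548 CPM there, against 504 to 554 CPM in the other libraries. POC1B-GALNT4, which joins a centriole gene to a glycosyltransferase gene, was at 0 in the same library, with 116, 80.5 and 0 counts in shNC and 94.9, 77.0 and 108 in the knockdown. Its locus summed to 20.3 CPM there, the lowest of the 6 libraries, against 21.6 to 27.3 CPM in the others. GPR75-ASB3 held 140, 69.2 and 7.86 counts in shNC and 82.6, 77.5 and 119 in the knockdown, while its locus summed to between 19.2 and 24.9 CPM. POC1B-GALNT4 and GPR75-ASB3 were picked after their values were seen. Over the 15 loci, the highest summed CPM of a locus exceeded the lowest by a median of 1.23-fold, close to the 1.24-fold of the 57 loci with a mean sum of at least 50 counts, and no summed locus went from 0 to at least 10 counts.

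The spread within groups was measured over all loci. The SD of log2(CPM + 1) between libraries of a group had a median of 0.295 over the readthrough rows, 0.144 over the part rows and 0.116 over the summed loci, and it was lower for the sum than for the readthrough row at 52 of the 61 loci. The spread also depends on the count, and the added 1 narrows it at rows of very few counts. For that reason rows of like counts were set side by side. Among rows with a mean from 10 to 50 counts, the median SD was 0.55 for 16 readthrough rows and 0.217 for 1580 other rows. Among rows with a mean from 50 to 500 counts it was 0.38 for 16 readthrough rows and 0.163 for 5106 other rows. ANKHD1-EIF4EBP3 and NME1-NME2, at 0.06 and 0.20, were among the tighter readthrough rows, and RPL36A-HNRNPH2, at 2.14, was the widest plotted.

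**Figure D3:**
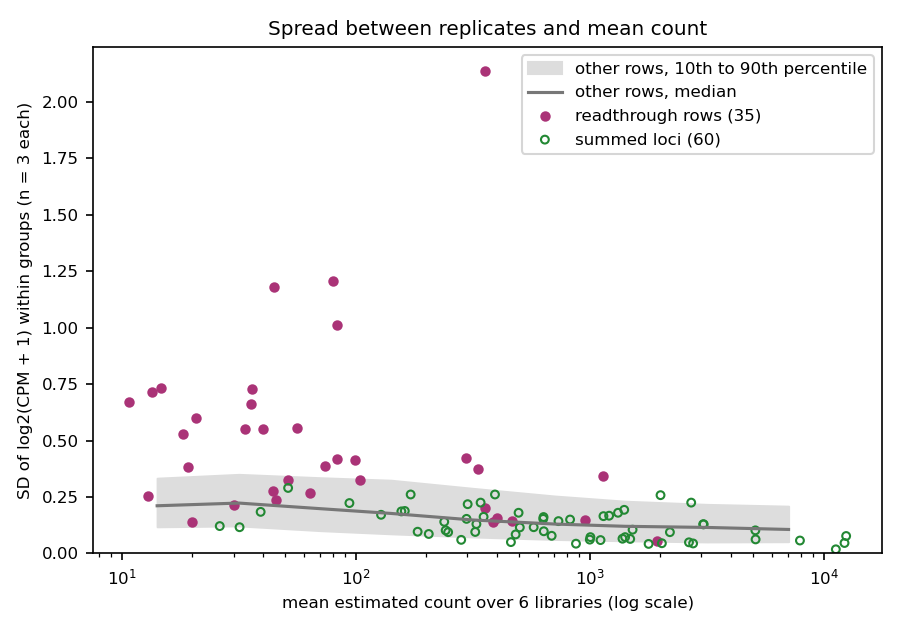
The SD of log2(CPM + 1) within groups, 3 libraries each, against the mean estimated count on a logarithmic axis, for 35 readthrough rows and 60 summed loci with a mean of at least 10 counts, over the median and the 10th to 90th percentile of other rows. Most readthrough rows lie above the grey band at their count, and most summed loci lie inside or below it.

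Between the groups, 6 readthrough rows met the criterion of a 1.5-fold change with an unadjusted p under 0.05 in edgeR's quasi-likelihood test, and none passed an adjusted p of 0.05, as was true of all rows (0.0%). Of the 61 rows, 36 had enough counts to be tested and 25 did not, and the 6 were 16.7% of these, where the criterion called 0.463% of all rows tested. Higher in the knockdown were 4, BIVM-ERCC5, SETDB2-PHF11, CORO7-PAM16 and TMEM189-UBE2V1 (0.185% of all rows in that direction), and lower were 2, CHURC1-FNTB and BCL2L2-PABPN1 (0.278% of all rows). TMEM189-UBE2V1 was at 0 in shNC and passed the filter on low counts through the knockdown alone, so that it had to be higher there. Without it 5 of 35 rows met the criterion, 14.3%, with 3 higher and 2 lower. At an unadjusted p under 0.05 alone the count was also 6, or 5 without TMEM189-UBE2V1, against 3.09% of all rows, and DESeq2's Wald test called 2 at an adjusted p under 0.05, BIVM-ERCC5 and, again through the filter, TMEM189-UBE2V1, where it called 0.0926% of all rows. With the replicate number as a block, 8 rows met the criterion (0.756% of all rows tested), PTGES3L-AARSD1 and TNFAIP8L2-SCNM1 being added, both lower in the knockdown, and 9 rows had an unadjusted p under 0.05 (18.3% of all rows). Without TMEM189-UBE2V1 these were 7 and 8 of 35. The block also gave 3 rows an adjusted p under 0.05, against 0.849% of all rows. These were BIVM-ERCC5, SETDB2-PHF11 and TMEM189-UBE2V1, the last again through the filter, which leaves 2 of 35. SETDB2-PHF11 is still counted in all the numbers given without TMEM189-UBE2V1. With 16.4, 4.12 and 1.68 counts in shNC, it too passed the filter mainly through the knockdown. Its call as higher there was thus not independent of the filter.

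The parts and the sums of the same loci were tested in the same way. Of 107 part rows tested, none met the criterion or passed the adjusted p in edgeR, and DESeq2 called none by either. At an unadjusted p under 0.05 there were 2 (3.09% of all rows), and 18 with the block (18.3% of all rows). With the block, 4 part rows met the criterion (0.756% of all rows), which were GPRASP2, TICAM2, TMEFF1 and TNFSF13, and none passed the adjusted p. When the 3 rows of each locus were replaced by their sum, none of 60 summed loci met the criterion, which called 0.419% of all rows of that table. With the block none met the criterion either (0.699% of all rows). At an adjusted p of 0.05 none was called without the block (0.0% of all rows), with it (1.07%) or by DESeq2 (0.0854%), which gave an adjusted p to 51 of the 60. An unadjusted p under 0.05 was reached by 1 summed locus without the block (3.09% of all rows) and by 7 with it (18.6%). The median absolute log2 fold change was 0.31 over the 36 readthrough rows, 0.08 over the part rows and 0.06 over the summed loci of those 36. The largest absolute change of a summed locus was 0.47, at TNFSF12-TNFSF13, which joins the genes of a pair of tumour necrosis factor family ligands. That sum was lower in the knockdown, with a log2 fold change of -0.47 and an unadjusted p of 0.0164 in edgeR. Its adjusted p was 0.967, or 0.0651 with the block.

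**Figure D4:**
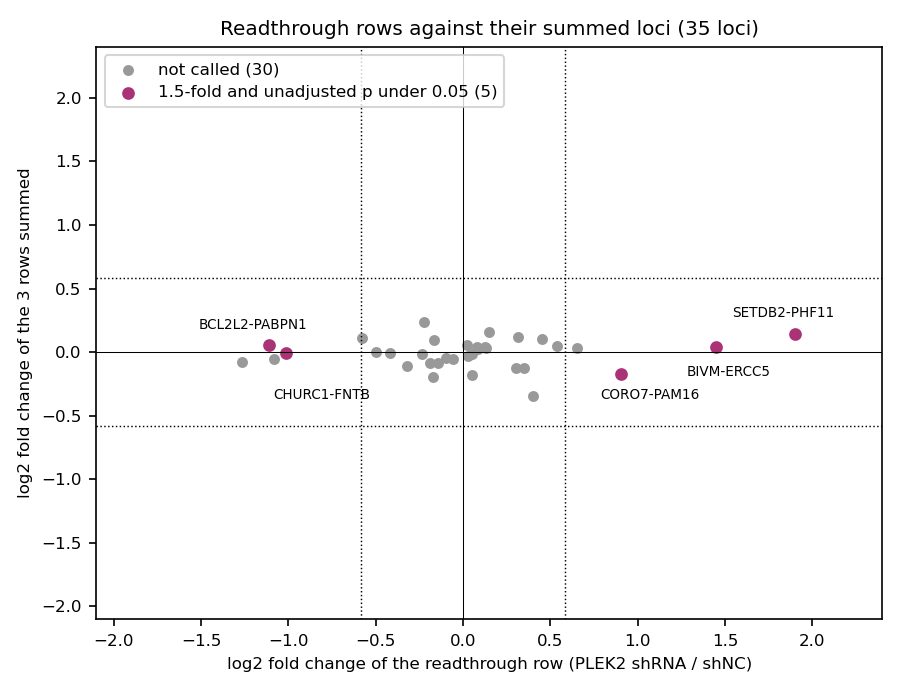
The log2 fold change (PLEK2 knockdown over shNC) of 35 readthrough rows against that of the 3 rows of the locus summed, on equal scales, with dotted lines at 1.5-fold and the rows that met the criterion in colour. TMEM189-UBE2V1 is left out because it was at 0 throughout shNC. Readthrough rows spread from side to side, while all summed loci lie within the dotted lines around 0.

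BIVM-ERCC5 had the smallest p among readthrough rows with counts in both groups. It joins BIVM, a conserved gene of little known function, to ERCC5, the endonuclease that cuts 3' of the lesion in nucleotide excision repair. Its counts were 52.0, 74.4 and 26.8 in shNC and 132, 145 and 162 in the knockdown, and the groups did not overlap. The log2 fold change was 1.45 (SE 0.30, adjusted p = 0.939 in edgeR), and with the block it was 1.47 with an adjusted p of 0.0119. The share of BIVM-ERCC5 was 7.51%, 13.4% and 4.58% in shNC and 16.8%, 24.2% and 27.6% in the knockdown, an exact two-sided permutation p of 0.1, which is the smallest that 3 against 3 can give.

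The locus as a whole was level. BIVM-ERCC5, BIVM and ERCC5 summed to 45.1, 39.0 and 40.5 CPM in shNC and to 50.1, 39.4 and 38.9 CPM in the knockdown, and the log2 fold change of the sum was 0.04. Counts of ERCC5 itself were 384, 294 and 347 in shNC and 367, 291 and 216 in the knockdown. The log2 fold change of ERCC5 was -0.30 (adjusted p = 0.968 in edgeR). With the block it was -0.31, with an unadjusted p of 0.0194 and an adjusted p of 0.185. In GENCODE 198 of the 5803 windows of BIVM-ERCC5, or 3.4%, were found in neither part.

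TMEM189-UBE2V1 was listed at 0 in all 3 shNC libraries and held 15.4, 30.2 and 12.5 counts in the knockdown. It joins a plasmanylethanolamine desaturase gene to the gene of a ubiquitin-conjugating enzyme variant that takes part in chains linked through lysine 63. With shNC set to a floor of 3 counts per library, its mean CPM was 6.17-fold higher in the knockdown. That floor is a chosen setting and not a measured limit, so the ratio is no lower bound. The adjusted p of TMEM189-UBE2V1 was 0.775 in edgeR and 0.00413 with the block. Because only the knockdown libraries brought the row past the filter on low counts, it could only be called as higher there.

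The counts of TMEM189-UBE2V1 were a small part of its locus, 0.246% to 0.580% of it in the knockdown libraries, and 46 of its 2708 GENCODE windows, or 1.7%, were its own. In shNC the rows of TMEM189 and UBE2V1 were whole numbers, 966, 897 and 948 for TMEM189 and 4445, 3635 and 3808 for UBE2V1, and in the knockdown they had decimals. The summed locus stood at 353, 320 and 329 CPM in shNC and 360, 343 and 337 CPM in the knockdown, with a log2 fold change of 0.05.

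SETDB2-PHF11, which joins a histone methyltransferase gene to a PHD finger gene, held 16.4, 4.12 and 1.68 counts in shNC and 48.2, 26.7 and 12.3 in the knockdown. The highest shNC library lay above the lowest knockdown library, so the groups overlapped, but within each replicate number the knockdown was higher. The row passed the filter on low counts mainly through the knockdown, so its call as higher was not independent of that filter. Its log2 fold change was 1.90 (SE 0.66), with an adjusted p of 0.968 in edgeR, and with the block 1.94 with an adjusted p of 0.0241. The summed locus had a log2 fold change of 0.14, but its sum was a whole number in only 2 of the 6 libraries. Without shNC replicate 1 the log2 fold change of SETDB2-PHF11 was 3.13, and the criterion was no longer met without shNC replicate 2 (1.64), shNC replicate 3 (1.48) or knockdown replicate 1 (1.35).

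CORO7-PAM16 joins a coronin of the Golgi to a subunit of the mitochondrial protein import motor. Its counts were 23.6, 32.8 and 46.5 in shNC and 76.9, 78.0 and 50.4 in the knockdown, without overlap. The log2 fold change was 0.90 (SE 0.29, adjusted p = 0.968 in edgeR), and the share went from 5.17% ± 1.25 (SD, n = 3) to 11.3% ± 3.1. Counts of CORO7 were 210, 201 and 247 in shNC and 122, 149 and 229 in the knockdown. The log2 fold change of CORO7 was -0.46 (adjusted p = 0.968 in edgeR, 0.0829 with the block). The sum of the 3 rows had a log2 fold change of -0.17 (adjusted p = 0.967 in edgeR, 0.187 with the block). BIVM-ERCC5 and CORO7-PAM16 met the criterion whichever single library was left out.

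CHURC1-FNTB joins a zinc finger gene to the beta subunit gene of protein farnesyltransferase. Its counts were 179, 74.7 and 76.4 in shNC and 52.8, 57.9 and 58.2 in the knockdown, so the groups did not overlap and shNC replicate 1 stood above the other 5 libraries. The log2 fold change was -1.02 (SE 0.32, adjusted p = 0.968 in edgeR, 0.0695 with the block), and the sum of its locus had -0.01. Without shNC replicate 1 the change of CHURC1-FNTB was -0.51 and no longer met the criterion.

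BCL2L2-PABPN1 joins the gene of the anti-apoptotic protein BCL-w to that of nuclear poly(A)-binding protein. It held 47.1, 119 and 58.8 counts in shNC and 40.2, 51.3 and 19.5 in the knockdown, and the groups overlapped. The log2 fold change was -1.11 (SE 0.43, adjusted p = 0.968 in edgeR, 0.0514 with the block), while the locus summed to 171 to 175 CPM in shNC and to 175 to 190 CPM in the knockdown. Its counts were 0.738% to 4.93% of the locus, the rest being PABPN1 and BCL2L2. The criterion was not met without shNC replicate 2 (-0.57) or without knockdown replicate 3 (-0.81).

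**Figure D5:**
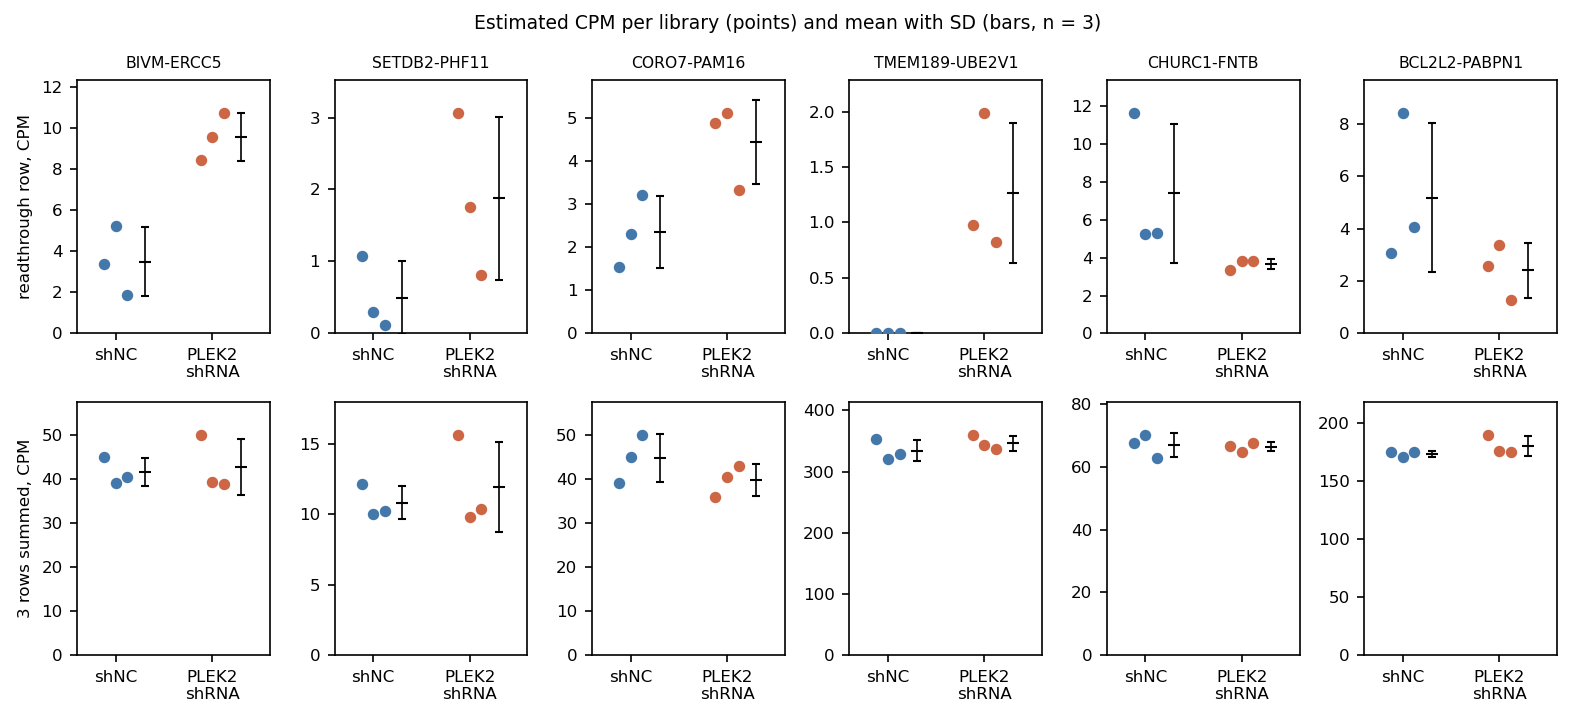
CPM of the 6 called readthrough rows (upper panels) and of the 3 rows of each locus summed (lower panels) in the 3 shNC and 3 PLEK2 knockdown libraries, with points for libraries and bars for the mean and SD, every axis starting at 0. The upper panels differ between groups, with overlap at SETDB2-PHF11 and BCL2L2-PABPN1, and in the lower panels the groups stand at similar heights.

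The CPM of the groups did not overlap at 5 of the 36 tested readthrough rows, 13.9%, where 9.19% of all rows tested had no overlap. Without TMEM189-UBE2V1, whose lack of overlap was fixed by the filter, they were 4 of 35, 11.4%. Higher in the knockdown were 4, BIVM-ERCC5, CORO7-PAM16, TMEM189-UBE2V1 and ZHX1-C8orf76 (4.08% of all rows), and lower was 1, CHURC1-FNTB (5.11%). ZHX1-C8orf76 held 11.8, 17.8 and 17.2 counts in shNC and 25.9, 24.4 and 22.2 in the knockdown, a log2 fold change of 0.54 (SE 0.27) that did not meet the criterion. At the part rows, 9 of 107 did not overlap, 8.41%. At the summed loci 6 of 60 did not, against 9.2% of all rows of that table. ARMCX5-GPRASP2 and PHOSPHO2-KLHL23 were the higher sums, and ARPC4-TTLL3, MINOS1-NBL1, PMF1-BGLAP and TNFSF12-TNFSF13 the lower.

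Genes whose products end transcription or degrade readthrough RNA were also read out. Of 37 tested genes of cleavage, polyadenylation and termination, none met the criterion or passed an adjusted p in edgeR, with 0 at an unadjusted p under 0.05, against 3.09% of all rows, and 8 with the block, against 18.3% of all rows. The median log2 fold change of these genes was 0.015, against -0.002 over all rows tested. The members with the smallest p were SYMPK, the scaffold of the cleavage complex, PAPOLG, a poly(A) polymerase, and PPP1CA, a catalytic subunit of protein phosphatase 1, with log2 fold changes of -0.17, 0.18 and -0.11. Of 23 genes of nonsense-mediated decay, none met the criterion or passed an adjusted p, 1 had an unadjusted p under 0.05 (3 with the block, set against the same shares of all rows), and the median was -0.015. That member was PNRC2, which links the decay factor UPF1 to decapping. PNRC2 stood at 104, 88.4 and 82.0 CPM in shNC and at 72.7, 73.6 and 75.7 CPM in the knockdown, without overlap, a log2 fold change of -0.30 (SE 0.10, adjusted p = 0.968 in edgeR, 0.0695 with the block). UPF3B, a junction-bound decay factor, and SMG9, a regulator of the UPF1 kinase, followed with 0.15 and -0.20.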

How the data were processed

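Poly(A) RNA of 3 shNC and 3 PLEK2 knockdown samples of HCT116 was read as single ends of 50 nt on a DNBSEQ instrument. The authors deposited a table of estimated counts, and of FPKM, for 17047 genes, together with group means and columns of fold changes and p-values that hold the study's own comparison and were not used. The submitters' processing notes name HISAT2 2.0.4, Bowtie2 2.2.5, RSEM 1.2.12 and DESeq2 1.4.5, and the mouse build GRCm38.p6, although the rows are human genes. The human build and annotation behind the counts are not given in the sources used here. RSEM estimates how reads that match several genes are divided, so its counts need not be whole. The source of the decimals at any 1 locus was not tested.

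Samples were grouped by their treatment label. Counts were rounded and tested with edgeR 4.0.16 (TMM, default filter on low counts, quasi-likelihood test, Benjamini-Hochberg adjustment over all 12959 rows tested), and a second table replaced the 3 rows of each locus by their sum (12876 rows tested). The thresholds were an adjusted p of 0.05, and 1.5-fold with an unadjusted p of 0.05. Library totals were 14377532 to 15602732 counts. Shares were compared by the exact permutation test. Alternatives were DESeq2 1.42.0, limma 3.58.1 on log2(FPKM + 1) and log2(FPKM + 0.1), other scalings and filters, libraries left out, and the replicate number as a block. The block paired the libraries by the replicate numbers in the labels. Same-numbered libraries deviated together from their group means (r = 0.738, 0.566 and 0.568 over 10231 genes, against -0.631 to 0.366 for other pairs). Deviations from a group mean are not independent, and replicates 2 and 3 also correlated across their numbers (r = 0.366 and 0.365). These values therefore cannot show that the libraries were paired by number. The scripts were tested on simulated data. Junctions and windows came from GENCODE 44 on GRCh38.

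The genes described, the lists of 3'-end and decay genes and the tests were chosen with earlier results of these data known. Readthrough rows are named where they had the highest mean count or share, the smallest p with or without the block, an adjusted p under 0.05, or a group at 0, and the 3 members of each list with the smallest p are named. Others are named as chosen after their values were seen.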

Additional observations from a re-analysis of the deposited data

How the results depend on the processing

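The 6 readthrough rows that met the criterion became 13 with no filter on low counts, of 61 rows tested (0.934% of all rows). The rows added without the filter included ABHD14A-ACY1 and PALM2-AKAP2, at 0 throughout the knockdown, and KLRC4-KLRK1 and RNF103-CHMP3, at 0 throughout shNC. With limma on log2(FPKM + 1) the count became 2 of 36 (0.123% of all rows). With the replicate block and replicate 1 or 3 left out of both groups it became 11 of 34 and 12 of 38. Either of these block settings called about 1% of all rows. Leaving out a single library gave 4 to 9. At an adjusted p under 0.05 the count of 0 became 2 with DESeq2, 3 with the replicate block, 4 with the block and library totals (1.48% of all rows), and 8, 1 and 10 with the block and replicate 1, 2 or 3 left out, settings that called 4.06%, 0.138% and 2.29% of all rows. The block in DESeq2 called 0, but it gave an adjusted p to only 1 of the 36 rows. The part rows that met the criterion went from 0 to 1 with no filter, 4 with the block, 4 with the block and library totals, 2 with the block in DESeq2, and 5, 2 and 5 with the block and replicate 1, 2 or 3 left out. They ranged from 0 to 4 with a single library left out, being 4 without shNC replicate 1 or knockdown replicate 3, 2 without shNC replicate 3 or knockdown replicate 2, and 1 without knockdown replicate 1. For the criterion, the shares of all rows given above with no filter, and with the block and replicate 1 or 3 left out, apply here too. At an adjusted p under 0.05 the part rows came to 7 and 4 with the block and replicate 1 or 3 left out, against 4.06% and 2.29% of all rows. With the block and without replicate 1, the summed loci came to 2 of 60 (PHOSPHO2-KLHL23 and PPAN-P2RY11), where 4.72% of all rows of that table were called. The 3'-end list gave 2 without replicate 1, and the decay list 1 and 3 without replicate 1 or 3, all with the block. These counts stand against the same 4.06% and 2.29% of all rows. The settings that combine the block with another change were chosen after seeing the data.

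The cause of these changes was not tested. Log2 fold changes near 0 changed sign when a library was left out, in ANKHD1-EIF4EBP3 (-0.01 to 0.07), BUB1B-PAK6 (-0.01 to 0.17), CENPS-CORT (-0.21 to 0.14), COMMD3-BMI1 (-0.25 to 0.32), NDUFC2-KCTD14 (-0.02 to 0.17), NME1-NME2 (-0.07 to 0.16), PPAN-P2RY11 (-0.32 to 0.03), RPL36A-HNRNPH2 (-0.45 to 1.53) and TMED7-TICAM2 (-0.05 to 0.47). Among summed loci they did so for BIVM-ERCC5 (-0.09 to 0.12), BUB1B-PAK6 (-0.03 to 0.14), CENPS-CORT (-0.10 to 0.00), CHURC1-FNTB (-0.04 to 0.04, and 0.02 with library totals), COMMD3-BMI1 (-0.09 to 0.12), ISY1-RAB43 (-0.00 to 0.07), NDUFC2-KCTD14 (-0.04 to 0.05, and 0.02 with library totals), NME1-NME2 (-0.05 to 0.01), SETDB2-PHF11 (-0.10 to 0.27) and TMED7-TICAM2 (-0.02 to 0.27). The called rows kept their direction under the alternatives run: BIVM-ERCC5 had 1.16 to 1.86 with a library left out, SETDB2-PHF11 1.35 to 3.13, CORO7-PAM16 0.68 to 1.2, CHURC1-FNTB -1.2 to -0.51 and BCL2L2-PABPN1 -1.43 to -0.57. Rows of a few counts cannot show a difference at this depth, and p-values over 3 libraries a group cover these libraries only.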
